A study of Mus musculus with 11 samples.

Results

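The genes described here are 7 adhesion molecules and chemokines whose transcription is classically driven by NF-κB: Icam1, Vcam1, Ccl2, Ccl3, Ccl4, Cxcl16 and Cxcl10. They were taken by symbol from the 31053 genes of the deposited matrices, and each was found once. Their unique molecular identifiers (UMIs, each standing for 1 captured RNA molecule) were summed per mouse and cell type, so that mice and not nuclei were compared. Of the 7 genes, 4 (Icam1, Vcam1, Ccl4 and Cxcl16) passed the filter on low counts in microglia-like sums, and the other 3 were described by their counts.

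Single nuclei of frozen cortex were sequenced from 11 mice labelled female (the methods state that RNA-seq was done on males), 1 library per mouse, in 4 genotype groups. Non-transgenic mice were Ikbkb+/+ (n = 4, 9.8 to 10.85 months old), and P301S mice were Ikbkb+/+;P301S+ (n = 3, 9.15 to 10.75 months), with a transgene for human tau carrying the P301S mutation. Knockout P301S mice were Ikbkb-/-;P301S+ (n = 2, 8.39 to 9.15 months), and active IKKβ P301S mice were IkbkbCA;P301S+ (n = 2, 9.8 to 10.85 months) and carried a constitutively active IKKβ behind a stop cassette in Rosa26. Both alleles were switched by Cx3cr1-CreERT2, a tamoxifen-dependent recombinase inserted in the fractalkine receptor gene, which is active in microglia and other macrophages, and all mice were given tamoxifen as young adults. In the plots the groups are written NTG, P301S, KO;P301S and CA;P301S. The control groups lacked this recombinase, so its presence and the Ikbkb allele cannot be told apart in comparisons with them. The knockout mice came from the floxed Ikbkb line and the active IKKβ mice from the active IKKβ line. Of the controls, 2 non-transgenic and 2 P301S mice were of the floxed line, and 2 non-transgenic mice and P301S replicate 3 were of the active IKKβ line.

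IKKβ, the product of Ikbkb, phosphorylates the inhibitors that hold NF-κB dimers in the cytoplasm, and their destruction lets the dimers enter the nucleus and bind promoters of inflammatory genes. ICAM-1 and VCAM-1 are cell surface proteins of the immunoglobulin superfamily that bind the leukocyte integrins LFA-1 and VLA-4 and are best known from inflamed endothelium. Chemokines are small secreted proteins that guide leukocytes through G protein-coupled receptors: CCL2 acts through CCR2, CXCL10 through CXCR3, and CXCL16, which is made as a membrane-bound protein, through CXCR6.

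The libraries held 72007219 to 93205362 UMIs, and 1599 barcode sequences of 114118 barcodes occurred in more than 1 library. After filtering, 103065 nuclei were used, of which 4377 were microglia-like (187 to 722 per mouse, with 380026 to 1621340 UMIs). All 10 microglia markers were detected in them in every mouse. Markers of neutrophils were at 0 in 10 of 11 mice, and 7 border macrophage markers summed to 222 to 721 CPM (counts-per-million values), against 7269 to 9935 for the 10 microglia markers. Markers of other types were also present, for example inhibitory neuron markers at 458 to 878 CPM and astrocyte markers at 420 to 576 CPM. Marker sums and levels compared between cell types are CPM of the plain UMI total, and values compared between genotypes within a type are CPM of the TMM-scaled total. P301S replicate 3 had 722 microglia-like nuclei where the other P301S mice had 255 and 325, and some results that rest on it are also given without it. Ikbkb itself, the targeted gene, averaged 145 ± 10.6 CPM (SD, n = 3) in P301S mice, against 117 ± 1.52 with the knockout (n = 2) and 159 ± 10.3 with the active kinase (n = 2), and neither difference passed the test. The counts do not record whether these reads lie in the deleted part of the gene or come from the inserted active allele, so this transcript does not check the labels.

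Icam1, the gene of the integrin ligand ICAM-1, was found mainly in microglia-like nuclei. It lies at chr9:21015985-21028817 on the plus strand (GRCm38, the build of mm10). Microglia-like nuclei held 75.0% of its 967 UMIs although they made up a small part of the nuclei. Of the 725 microglial UMIs, 405 were from the 2 active IKKβ mice, so this share rests in part on them. Over 11 mice its level in microglia-like nuclei averaged 61.4 ± 38.8 CPM of the plain total (SD), above 19.3 ± 12.5 CPM in endothelial-like nuclei in 11 of 11 mice on that scale (exact sign-flip permutation test, p = 0.000977, adjusted p = 0.0154 over 63 comparisons of neighbouring types over all 7 genes, two-sided). The value of 0.000977 is the smallest p that 11 mice allow. With the TMM scaling of each type, non-transgenic replicate 2 (33.6 against 39.2 CPM) and knockout replicate 2 (40.7 against 44.1 CPM) had the lower value in microglia-like nuclei. With each nucleus thinned to 1000 UMIs the order was kept in 9 of 11 mice, with p = 0.0234 and adjusted p = 0.394 in the same exact test. Endothelial-like and fibroblast-like nuclei, at 11.9 ± 6.34 CPM, did not differ beyond their spread (p = 0.48, exact sign-flip permutation test), and astrocyte-like nuclei were lower at 1.40 ± 2.87 CPM, or 0.537 ± 0.381 CPM (SD, n = 10) without knockout replicate 1.

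**Figure D1:**
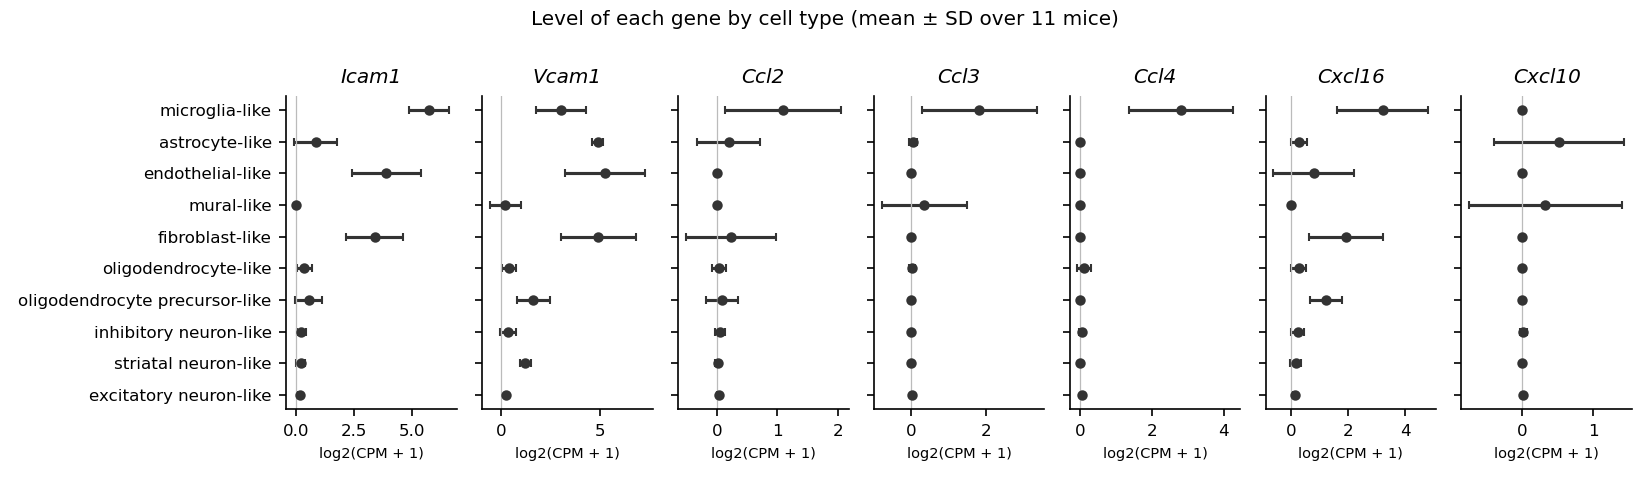
Level of each of the 7 genes in 10 cell types, as log2(CPM + 1) with CPM over the UMIs of the type (points are means over 11 mice, bars are SD; each panel has its own axis). Icam1, Ccl3, Ccl4 and Cxcl16 were highest in microglia-like nuclei, and Vcam1 was highest in endothelial-like, fibroblast-like and astrocyte-like nuclei.

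RefSeq promoter entries (GRCm38.p6) were at hand for 3 of the 7 genes, Icam1, Ccl3 and Cxcl10. The 250 bases before the start of each are shown 5′ to 3′ on the gene's strand because the regulated genes are set here beside ones with few counts. Capitals mark GGAAATTCC, a κB-type sequence, and in Cxcl10 also the core of interferon-stimulated response elements, which is GAAA, any 2 bases and GAAA. The motifs were chosen after these sequences had been read, and both strands were searched.
Icam1, chr9:21015690-21015939 (+): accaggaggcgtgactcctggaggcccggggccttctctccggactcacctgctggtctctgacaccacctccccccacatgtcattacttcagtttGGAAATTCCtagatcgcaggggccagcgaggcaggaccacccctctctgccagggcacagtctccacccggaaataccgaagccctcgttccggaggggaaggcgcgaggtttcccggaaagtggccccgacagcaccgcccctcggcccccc
Ccl3, chr11:83649379-83649628 (-): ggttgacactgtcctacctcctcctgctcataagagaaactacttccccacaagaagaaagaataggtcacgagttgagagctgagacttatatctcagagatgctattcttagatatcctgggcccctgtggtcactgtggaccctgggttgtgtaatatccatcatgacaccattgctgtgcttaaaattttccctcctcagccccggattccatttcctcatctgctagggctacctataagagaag
Cxcl10, chr5:92348890-92349139 (-): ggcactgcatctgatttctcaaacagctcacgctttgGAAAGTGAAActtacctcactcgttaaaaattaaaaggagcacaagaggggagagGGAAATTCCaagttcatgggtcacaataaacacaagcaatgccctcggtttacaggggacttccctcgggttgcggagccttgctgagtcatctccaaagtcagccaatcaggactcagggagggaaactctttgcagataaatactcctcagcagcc

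The same GGAAATTCC occurred 153 bases before the start of Icam1 and 158 bases before that of Cxcl10, and 0.286% of 32851 promoter windows of this length held it on either strand. A looser κB pattern, GGG followed by any 5 bases and CC, which overlaps it in Cxcl10, was found in 45.8% of windows, and in both genes. The interferon response core was present in Cxcl10 at 213 bases and in 2.98% of windows. None of the 3 patterns was in the window of Ccl3. These matches describe letters and not binding, and the genes that share GGAAATTCC had different counts in microglia-like nuclei, as given below.

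Icam1 rose with the active kinase. In active IKKβ P301S mice it was at 122 and 146 CPM, from 194 and 211 UMIs. In P301S mice it was at 16.5, 43.8 and 71.1 CPM, in knockout P301S mice at 44.5 and 40.7 CPM, and in non-transgenic mice at 53.5, 33.6, 41.9 and 79.0 CPM. Both active IKKβ mice were above all 9 other mice, while the other 3 groups overlapped, with the highest control values in mice of the active IKKβ line. How many of all genes separate the mice in this way was not counted, here or for the genes below. Against P301S mice the difference was 1.38 ± 0.29 on the log2 scale (SE), or 2.60-fold (edgeR's quasi-likelihood test, adjusted p = 0.0114). Against knockout P301S mice it was 1.63 ± 0.34 (edgeR adjusted p = 0.00887), and against non-transgenic mice 1.32 ± 0.28 (edgeR adjusted p = 0.00671). The call against knockout P301S mice was lost under 5 alternative settings, given further below, with differences of 0.72 to 1.71.

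A fit with line and genotype combined gave the difference within the active IKKβ line, where P301S replicate 3 is the only P301S mouse and is assumed to vary like the other groups. There the difference from P301S was 0.91 ± 0.29 on the log2 scale (edgeR adjusted p = 0.206), and from the 2 non-transgenic mice of that line 1.09 ± 0.27 (edgeR adjusted p = 0.0184). Without P301S replicate 3 the difference from P301S was 2.00 ± 0.33 (edgeR adjusted p = 0.000738). The P301S effect on Icam1 did not differ by test between the lines (0.54 ± 0.53 on the log2 scale, edgeR adjusted p = 0.885). The call against P301S was lost with line as a covariate (edgeR adjusted p = 0.0844), with the replicate block (0.221), and without P301S replicate 2 (0.0833) or active IKKβ replicate 2 (0.0971), with the same direction.

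**Figure D2:**
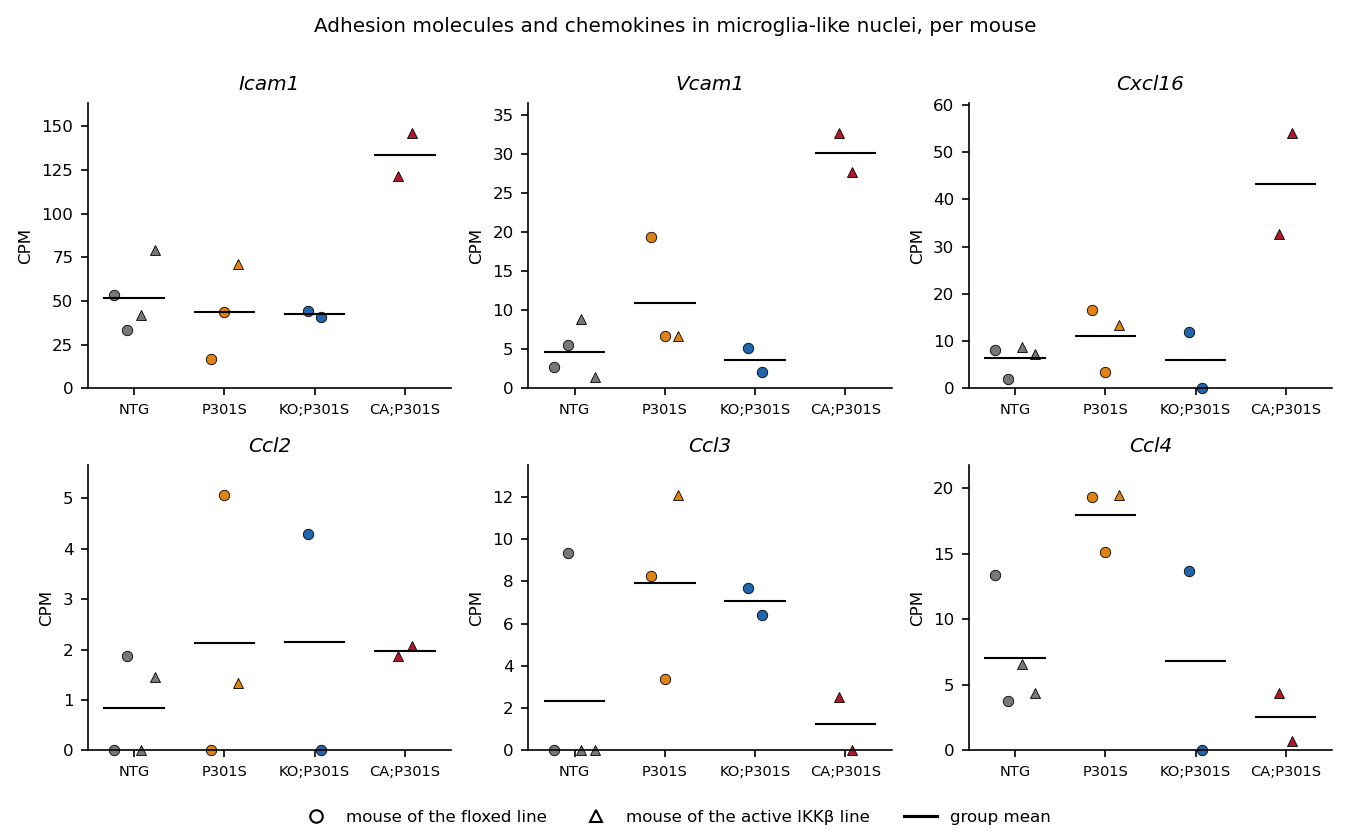
CPM of 6 of the genes in microglia-like sums of each mouse, by genotype group (circles are mice of the floxed line, triangles of the active IKKβ line, horizontal lines are group means). The 2 active IKKβ P301S mice lay above all others for Icam1, Vcam1 and Cxcl16 and below all P301S mice for Ccl3 and Ccl4. How many of all genes separate the mice in this way was not counted. Cxcl10 had 0 UMIs in every mouse and is not drawn.

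The Icam1 transcript was detected in a larger share of nuclei in active IKKβ mice, rather than as many copies in a few nuclei. In active IKKβ mice 24.5% of 678 and 29.4% of 574 microglia-like nuclei had an Icam1 UMI, against 2.35% to 14.0% in the other 9 mice. Median depth per microglia-like nucleus was 2333.5 and 2490.5 UMIs in the active IKKβ mice and 1445 to 2468 in the others, so each nucleus was also thinned to 1000 UMIs. The shares were then 9.90% and 14.5% against 2.42% to 7.48%, and the active IKKβ mice remained above the rest. Each nucleus with the transcript held on average 1.21 UMIs in active IKKβ mice and 1.14 in P301S mice. At so few UMIs per nucleus, these shares cannot tell more expressing nuclei from a higher level in every nucleus. In oligodendrocyte-like nuclei, which should lack the gene and had a median depth of 1851 to 2884 UMIs per mouse, 0.0761% had a UMI.

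Vcam1 encodes the VLA-4 ligand VCAM-1 and lies at chr3:116109949-116129688 on the minus strand. Its main source in these cortices was not microglia: 51.0% of its 1619 UMIs were in astrocyte-like nuclei and 7.97% in microglia-like nuclei. By level, endothelial-like nuclei came first at 63.0 ± 60.9 CPM (SD, n = 11 mice), followed by fibroblast-like nuclei at 46.0 ± 40.2, astrocyte-like nuclei at 28.6 ± 6.22 and microglia-like nuclei at 10.5 ± 10.5. The first 3 did not differ from their neighbours in this order (exact sign-flip permutation tests, p = 0.418 and 0.966), and astrocyte-like nuclei were above microglia-like nuclei in 9 of 11 mice (p = 0.00586, adjusted p = 0.0527, permutation). Ependymal or choroid plexus-like nuclei, too few per mouse to test, held Vcam1 at 92.1 CPM over all mice, but 80 of these 119 UMIs were from P301S replicate 1, and without that mouse the level was 48.6 CPM.

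In microglia-like sums Vcam1 was at 32.6 and 27.7 CPM in active IKKβ P301S mice, from 52 and 40 UMIs. P301S mice had 19.3, 6.74 and 6.70 CPM from 7, 4 and 10 UMIs, knockout P301S mice 5.14 and 2.14 CPM, and non-transgenic mice 2.67, 5.6, 8.82 and 1.46 CPM. The active IKKβ mice did not overlap any other group. Vcam1 passed the filter on low counts largely through these mice, which favours a rise in that group. The differences were 1.73 ± 0.44 on the log2 scale against P301S mice (edgeR adjusted p = 0.0476), 2.80 ± 0.57 against knockout P301S mice (edgeR adjusted p = 0.00801) and 2.73 ± 0.50 against non-transgenic mice (edgeR adjusted p = 0.00173). Under 6 alternative settings, given further below, the call against knockout P301S mice was lost, with differences of 2.52 to 3.72.

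The few Vcam1 molecules of the control mice lay largely in nuclei with border macrophage markers. Border macrophages line the meninges and vessels, and nuclei that held at least 2 of their 7 markers were counted apart. In non-transgenic mice 7 of 9 Vcam1 UMIs came from 32 such nuclei, and in P301S mice 13 of 21 from 29. In active IKKβ mice 10 of 92 came from 63 such nuclei, and 82 UMIs lay in the rest, where non-transgenic mice had 2, P301S mice 8 and knockout P301S mice 3. P301S replicate 3 had 3 of its 10 Vcam1 UMIs in such nuclei, while replicate 1 had 6 of 7 and replicate 2 had 4 of 4. Without these nuclei the difference from P301S mice was 3.06 ± 0.57 on the log2 scale (edgeR adjusted p = 0.00313), and from non-transgenic mice 4.60 ± 0.72 (edgeR adjusted p = 0.000246). This alternative was chosen after the data were seen. It removes most Vcam1 UMIs of the control mice and few of the active IKKβ mice, so larger differences follow from the choice itself. What is left passed the filter on low counts through the active IKKβ mice. Nothing is read from the size or p-values of these 2 differences.

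For Icam1 and Cxcl16, 1 of 111 and 1 of 13 UMIs of non-transgenic mice were in nuclei holding border macrophage markers, and 24 of 405 and 17 of 130 UMIs of active IKKβ mice. The Vcam1 call against P301S mice, over all microglia-like nuclei, was near the threshold. It was lost with DESeq2 (adjusted p = 0.37), with line (edgeR adjusted p = 0.0917) or age (0.0505) as a covariate, with the replicate block (0.0819), within the active IKKβ line with its 1 P301S mouse (edgeR adjusted p = 0.102, difference 2.15 ± 0.58), and without any 1 of non-transgenic replicate 1 (0.0599) or 2 (0.0597), knockout replicate 1 (0.0532), P301S replicate 2 (0.217) or 3 (0.257) and active IKKβ replicate 1 (0.344) or 2 (0.174). The Vcam1 call against non-transgenic mice was kept under each of these settings.

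Vcam1 was the only member abundant enough to be tested in other types, namely in astrocyte-, endothelial-, fibroblast-, striatal neuron- and excitatory neuron-like sums. In astrocyte-like sums active IKKβ P301S mice had 29.97 and 21.8 CPM, P301S mice 22.4, 28.5 and 30.01, knockout P301S mice 25.4 and 22.7, and non-transgenic mice 38.7, 41.4, 27.2 and 28.1. These groups overlapped, apart from the knockout mice, which lay below all non-transgenic mice, and the difference between active IKKβ and P301S mice was -0.09 ± 0.22 on the log2 scale (edgeR adjusted p = 0.989). The difference between microglia-like and astrocyte-like sums in this contrast was itself tested in 1 model with the mouse as a block, and was 1.89 ± 0.42 (edgeR adjusted p = 0.0154, 0.649% of 13255 genes called). The same test against fibroblast-like sums gave 2.32 ± 0.57 (adjusted p = 0.0656, edgeR) and against endothelial-like sums 2.88 ± 0.79 (adjusted p = 0.185, edgeR).

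No test of Vcam1 outside microglia passed in the P301S, knockout or active IKKβ contrast (0 of 15 tests). Few genes did in those types: 0% in astrocyte-, endothelial- and fibroblast-like sums, 0.00744% in striatal neuron-like sums for P301S, and 0.0331% and 0.00552% in excitatory neuron-like sums for P301S and active IKKβ. Endothelial-like sums were thin, with 0 to 26 Vcam1 UMIs per mouse, and the highest value, P301S replicate 2, drew 16 of its 26 UMIs from 1 nucleus. That nucleus had 10 of 11 endothelial markers. Fibroblast-like sums ranged from 0 UMIs in non-transgenic replicate 4 to 49 in P301S replicate 1, and their difference between knockout and P301S mice was -2.37 ± 0.70 on the log2 scale (edgeR adjusted p = 0.84).

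**Figure D3:**
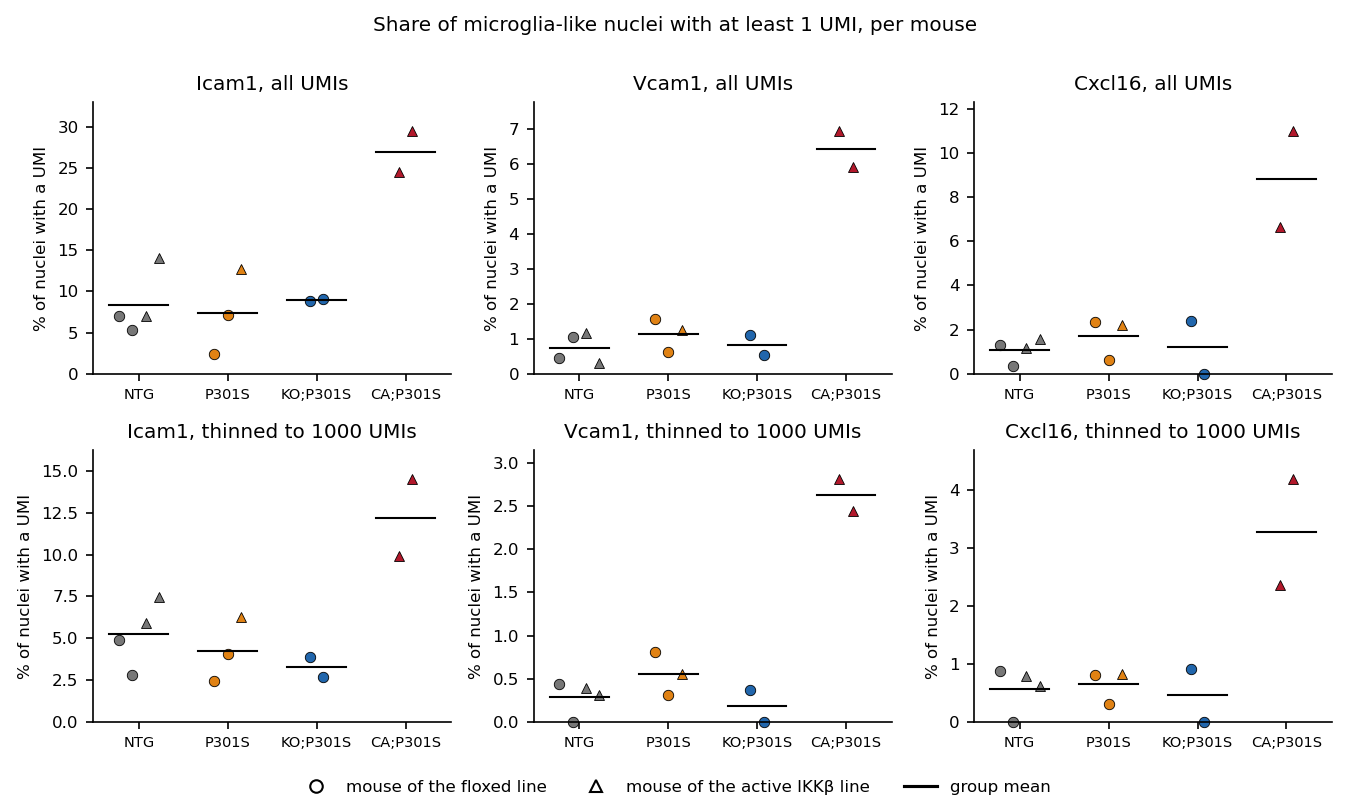
Percent of microglia-like nuclei of each mouse with at least 1 UMI of Icam1, Vcam1 or Cxcl16, over all UMIs (top) and after each nucleus was thinned to 1000 UMIs (bottom). Circles are mice of the floxed line, triangles of the active IKKβ line, and lines are group means. The 2 active IKKβ mice were above all other mice in all 6 panels. The bottom panels reuse nuclei of the top panels, and the genes drawn are ones called higher in these mice, so the panels are not separate tests. The share of all genes that separate the mice in this way was not counted.

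Cxcl16, the membrane-bound CXCR6 ligand at chr11:70453983-70459984 on the minus strand, overlaps Zmynd15 on the other strand. Microglia-like nuclei held 56.7% of its 326 UMIs, at 14.0 ± 15.6 CPM (SD, n = 11 mice), and the next type, fibroblast-like nuclei, was at 4.04 ± 3.01 CPM and lower in 8 of 11 mice (exact sign-flip permutation test, p = 0.106). Of the 185 microglial UMIs, 130 were from the 2 active IKKβ mice, so this share and level rest largely on them. The sum of Cxcl16 was 32.6 and 54.0 CPM in active IKKβ P301S mice, from 52 and 78 UMIs. It was 16.5, 3.37 and 13.4 CPM in P301S mice, 11.99 and 0 in knockout P301S mice, and 8.02, 1.87, 8.82 and 7.32 in non-transgenic mice. Again the active IKKβ mice stood above all others, and the remaining groups overlapped. Cxcl16 passed the filter on low counts largely through the active IKKβ mice, which favours a rise in that group.

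The difference of Cxcl16 was 1.93 ± 0.46 on the log2 scale, or 3.81-fold, against P301S mice (edgeR adjusted p = 0.0277), 2.38 ± 0.54 against knockout P301S mice (edgeR adjusted p = 0.0192) and 2.73 ± 0.50 against non-transgenic mice (edgeR adjusted p = 0.00192). The call against knockout P301S mice was lost under 6 alternative settings, not all of them named below, with differences of 1.66 to 3.15. The value against knockout P301S mice was 1.83 ± 0.53 without knockout replicate 2, and without replicate 1 the remaining knockout mouse had 0 UMIs, so that its fitted value of 8.11 is no measure of the fold. Of microglia-like nuclei 6.64% and 10.98% had a UMI in active IKKβ mice and 0% to 2.39% in the others. After thinning the shares were 2.36% and 4.19% against 0% to 0.919%. The call against P301S mice was lost with DESeq2 (adjusted p = 0.12), with line as a covariate (edgeR adjusted p = 0.196), with the replicate block (0.202), with doublets kept (edgeR adjusted p = 0.24), without active IKKβ replicate 2 (edgeR adjusted p = 0.366) or P301S replicate 2 (0.169), and within the active IKKβ line with its 1 P301S mouse (edgeR adjusted p = 0.214, difference 1.67 ± 0.54), where the call against non-transgenic mice held (edgeR adjusted p = 0.0155).

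Of the CC chemokines, Ccl4 was the one that passed the filter. Ccl4, which encodes an attractant of monocytes and T cells, lies at chr11:83662584-83664683 on the plus strand, close to Ccl3 at chr11:83647844-83649355 on the minus strand. Microglia-like nuclei held 78.1% of the 105 Ccl4 UMIs and 88.0% of the 50 Ccl3 UMIs. For Ccl4 the microglial level exceeded that of the next type, oligodendrocyte-like nuclei, in 10 of 11 mice (exact sign-flip permutation test, p = 0.00195, adjusted p = 0.0246). After thinning the next type was excitatory neuron-like nuclei, and microglia-like nuclei were higher in 8 of 11 mice (exact permutation p = 0.00781, adjusted p = 0.369).

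Ccl4 was lower in active IKKβ P301S mice, at 4.39 and 0.692 CPM from 7 and 1 UMIs, than in P301S mice, at 19.3, 15.2 and 19.4 CPM from 7, 9 and 29 UMIs. Knockout P301S mice had 13.7 and 0 CPM, and non-transgenic mice 13.4, 3.73, 6.61 and 4.39. The P301S mice lay above every other mouse, and the remaining groups overlapped. Against P301S mice the difference of active IKKβ mice was -2.72 ± 0.69 on the log2 scale (edgeR adjusted p = 0.0435). P301S mice exceeded non-transgenic mice by 1.47 ± 0.60 (edgeR adjusted p = 0.518), which did not pass.

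This fall of Ccl4 rests on 8 UMIs in the active IKKβ mice, and the gene passed the filter through the P301S mice, where it was high, which favours a fall from that group. It was lost with DESeq2 (adjusted p = 0.0791), with line (edgeR adjusted p = 0.112) or age (0.0517) as a covariate, with the replicate block (0.225), with doublets kept (0.0883), within the active IKKβ line with its 1 P301S mouse (edgeR adjusted p = 0.109), and without non-transgenic replicate 1 (0.0501), 2 (0.0523) or 3 (0.0554), P301S replicate 2 (0.109), and active IKKβ replicate 1 (0.051) or 2 (0.418), at -2.01 to -4.41 on the log2 scale. Without P301S replicate 1 or 3 it no longer passed the filter on low counts. Ccl4 did not differ by test between active IKKβ and knockout P301S mice (-1.74 ± 0.82, edgeR adjusted p = 0.373, with the sign turned at 4.14 ± 3.09 without knockout replicate 1, when the remaining knockout mouse had 0 UMIs) or non-transgenic mice (-1.25 ± 0.82, edgeR adjusted p = 0.58).

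Ccl3, which encodes a related attractant of leukocytes, was below the filter. The P301S mice had 3, 2 and 18 UMIs, the knockout P301S mice 9 and 3, the active IKKβ mice 4 and 0, and the non-transgenic mice 0, 5, 0 and 0. In CPM the P301S mice averaged 7.90 ± 4.36 (SD, n = 3), the knockout P301S mice 7.07 ± 0.908 (n = 2), the active IKKβ mice 1.25 ± 1.77 (n = 2) and the non-transgenic mice 2.33 ± 4.67 (n = 4). An exact permutation test of log2(CPM + 1) over the 4 genotypes gave p = 0.147, two-sided. Active IKKβ against P301S mice gave p = 0.2, where 2 against 3 mice cannot go below 0.1 in this permutation test. The active IKKβ mice, at 2.51 and 0 CPM, did not overlap the P301S mice, at 8.27, 3.37 and 12.1 CPM, and with no filter on low counts the difference was -2.62 ± 0.75 on the log2 scale (edgeR adjusted p = 0.0296). That fit was not repeated without P301S replicate 3, which held 18 of the 23 Ccl3 UMIs of its group. Across all mice 13 microglia-like nuclei held both Ccl3 and Ccl4, of 38 with Ccl3 and 55 with Ccl4, so 23.6% of nuclei with Ccl4 also had Ccl3, against 0.868% of all microglia-like nuclei.

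Ccl2, the CCR2 ligand at chr11:82035571-82037453 on the plus strand, was sparse everywhere, with 43 UMIs in all used nuclei. In microglia-like sums the active IKKβ mice had 3 and 3 UMIs, the knockout P301S mice 5 and 0, the P301S mice 0, 3 and 2, and the non-transgenic mice 0, 1, 0 and 1. Of the 5 in knockout replicate 1, 4 were in 1 nucleus. The exact permutation test over 4 genotypes gave p = 0.753, and a difference was not detectable at this depth.

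Cxcl10, the CXCR3 ligand at chr5:92346638-92348889 on the minus strand, had 0 of 9392147 UMIs in microglia-like nuclei, which allows up to 0.319 CPM over all 11 mice pooled and up to 0.97 CPM over the 2 active IKKβ mice. The gene lies within the span of Art3 on the other strand. Its 34 UMIs were found in astrocyte-like nuclei in 88.2%, that is 30 UMIs in 9 nuclei. Of these, 20 came from knockout replicate 1 and 8 from P301S replicate 3. Active IKKβ replicate 1 and P301S replicate 2 had 1 each, and the other mice 0.

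A single nucleus set most of that knockout value. It was singled out after the counts were seen. Within an astrocyte-like cluster, 1 nucleus of knockout replicate 1 with 10220 UMIs held 28 UMIs of Icam1, 17 of Cxcl10, 8 of Ccl2 and 5 of Vcam1. It had 7 of 8 astrocyte markers, 1 of 10 microglia markers and 0 of 11 endothelial markers. The astrocyte-like Icam1 sum of that mouse was 35 UMIs in 7 nuclei, its Ccl2 sum 8 UMIs in this nucleus, and its Cxcl10 sum 20 UMIs in 4 nuclei.

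**Figure D4:**
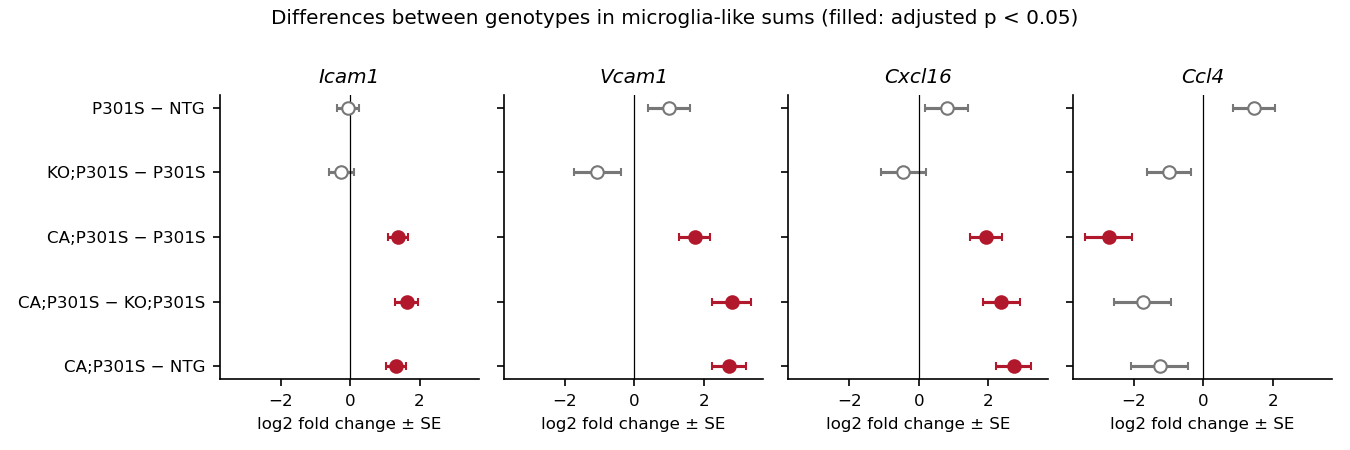
Log2 fold changes with standard errors from edgeR for the 4 tested genes in microglia-like sums, in 5 comparisons of genotypes (filled red points have an adjusted p under 0.05, open grey points do not). Icam1, Vcam1 and Cxcl16 passed in all 3 comparisons of active IKKβ mice and Ccl4 only against P301S mice. No gene passed for P301S or knockout.

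Across the comparisons, 3 of the 4 tested genes were called higher and 1 lower in active IKKβ against P301S mice, where 1.55% of 8973 genes were called (88 higher and 51 lower). A gene could pass the filter on low counts through 2 mice alone, as Cxcl16 and Vcam1 did largely through the active IKKβ mice and Ccl4 through the P301S mice, so the count of 4 is of genes that had to be high in some group and nothing is read from it against the share of all genes. Against knockout P301S mice 3 of 4 were called, where 1.82% of genes were, and against non-transgenic mice 3 of 4, where 3.83% were. These comparisons share the active IKKβ mice. The knockout and active IKKβ mice also differ in line. With line as a covariate, age as a covariate or the replicate block, 0 members were called against knockout P301S mice, and the Icam1 difference was 0.80 ± 0.39, 1.38 ± 0.49 and 0.72 ± 0.40 on the log2 scale. The Vcam1 difference was then 3.31 ± 0.86, 3.07 ± 0.87 and 3.67 ± 0.88, and that of Cxcl16 1.66 ± 0.88, 3.15 ± 0.80 and 2.06 ± 0.70. Against knockout P301S mice, Icam1 lost its call without knockout replicate 1 (edgeR adjusted p = 0.14) or 2 (0.0841), Vcam1 without knockout replicate 1 (0.107) or 2 (0.0788) or active IKKβ replicate 1 (0.0741), and Cxcl16 without knockout replicate 2 (0.141) or active IKKβ replicate 2 (0.14). Against non-transgenic mice, Icam1 (0.0697) and Cxcl16 (0.0529) lost theirs without active IKKβ replicate 2. P301S against non-transgenic mice called 0 of 4 members and 0.0669% of genes, and knockout against P301S mice called 0 of 4 members and 0% of genes (736 genes at p under 0.05 in edgeR). In the P301S contrast Icam1 changed by -0.06 ± 0.31 on the log2 scale, Vcam1 by 0.999 ± 0.612 and Cxcl16 by 0.80 ± 0.63. In the knockout contrast the 4 genes were at -0.25 ± 0.36 (Icam1), -1.07 ± 0.68 (Vcam1), -0.98 ± 0.63 (Ccl4) and -0.45 ± 0.65 (Cxcl16), with edgeR adjusted p from 0.687 to 0.869.

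Within active IKKβ mice Icam1 was seen together with Cxcl16 or Vcam1 in part of the nuclei. Of 108 nuclei with a Cxcl16 UMI, 38 (35.2%) also had Icam1, against 26.8% of all 1252 microglia-like nuclei. Of 81 nuclei with Vcam1, 29 (35.8%) had Icam1, and 8 (9.88%) had Cxcl16, which was in 8.63% of all these nuclei. Nuclei with more UMIs are more likely to show any pair, and these shares were not thinned.

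The companion genes of the pathway were taken from lists. Of 28 regulators and cytokines induced by NF-κB, 16 were tested, and 7 rose and 0 fell in active IKKβ against P301S mice, where 1.55% of all genes were called. Some of the 16 passed the filter through the active IKKβ mice, such as Bcl3 at 18.8 and 20.1 CPM there and at most 5.6 in the other mice, so nothing is read from the count. The 7 were the NF-κB inhibitor gene Nfkbie, Bcl3, whose product is a nuclear cofactor of NF-κB dimers, the A20-binding protein gene Tnip1, the ubiquitin ligase genes Birc3 and Traf3, the subunit gene Relb and the kinase gene Ikbke. Tnip1, for example, was at 159 and 167 CPM in active IKKβ mice and at 33.1, 25.3 and 45.6 in P301S mice, a difference of 2.13 ± 0.23 on the log2 scale (edgeR adjusted p = 5.4e-06). Relb was at 150 and 203 CPM against 27.6, 52.2 and 81.8, a difference of 1.53 ± 0.28 (edgeR adjusted p = 0.00313). Nfkbia, the IκBα gene, rose by 2.31 ± 0.52 against knockout P301S mice (edgeR adjusted p = 0.0178) and was at 1.64 ± 0.42 against P301S mice (edgeR adjusted p = 0.0532). Few companion genes were called against knockout P301S mice with line, age or the replicate block in the fit, as counted in the last section. Nfkb1 passed only against non-transgenic mice (0.64 ± 0.16, edgeR adjusted p = 0.0255).

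Of 13 other adhesion molecules, 6 were tested and 0 were called in any of the 5 comparisons, where at most 3.83% of all genes were (1.55% against P301S mice), with a median of -0.20 in the active IKKβ contrast. Among 10 leukocyte integrins and their ligands, 5 were tested and 0 were called against P301S mice, and Itgax, the CD11c integrin gene, was called against non-transgenic mice (3.68 ± 0.71, edgeR adjusted p = 0.00292) but not against P301S mice (0.79 ± 0.49, edgeR adjusted p = 0.765). Itgax was at 2.76, 15.2 and 50.3 CPM in P301S mice, the highest in replicate 3, and at 28.8 and 76.1 in active IKKβ mice. Non-transgenic mice were at 2.67, 3.73, 6.61 and 2.93 CPM. Itgax passed the filter on low counts largely through the active IKKβ mice and P301S replicate 3, which favours a rise against non-transgenic mice. How far the difference from P301S mice rests on P301S replicate 3 is not shown, because no value without it is given. Whether the Itgax differences differ from each other was not tested. Among 28 other chemokines 3 were tested and 0 called. Of 22 chemokine receptors 2 were tested, and Ccr9, the receptor of CCL25, rose from 5.51, 0 and 2.68 CPM in P301S mice to 45.1 and 94.1 in active IKKβ mice (4.74 ± 0.55, edgeR adjusted p = 1.8e-05). Ccr9 had 0 UMIs in both knockout P301S mice and at most 6.61 CPM in the non-transgenic mice. It passed the filter on low counts through the active IKKβ mice, where it was high, which favours a rise in that group.

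**Figure D5:**
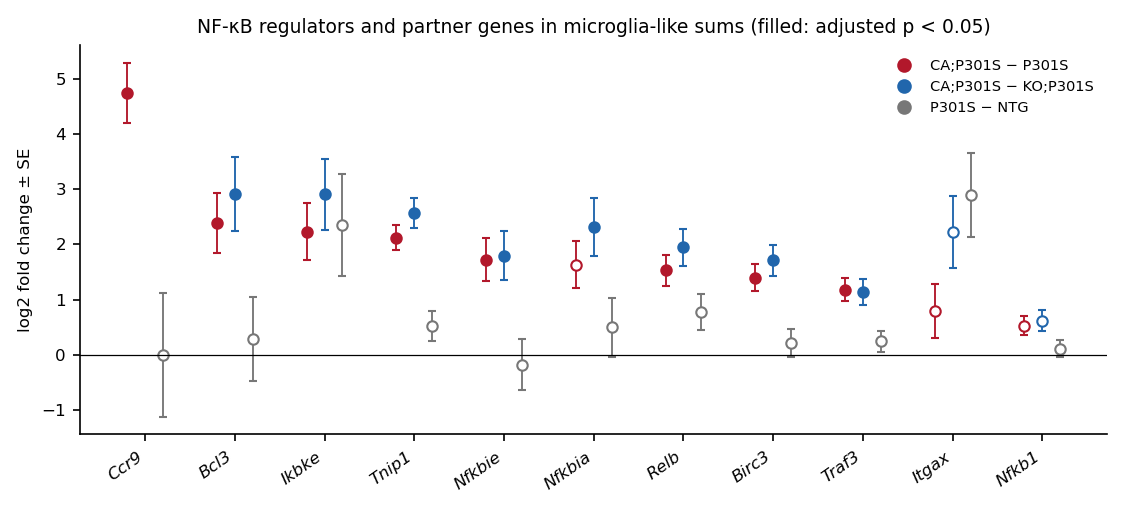
Log2 fold changes with standard errors from edgeR in microglia-like sums for the 11 companion genes called in any comparison, for active IKKβ against P301S mice (red), active IKKβ against knockout P301S mice (blue) and P301S against non-transgenic mice (grey). Filled points have an adjusted p under 0.05, and Ccr9 against knockout is not drawn because both knockout mice had 0 UMIs. All 11 genes were above 0 in both active IKKβ comparisons drawn, and no grey point was filled.

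By pattern over the 11 mice, the genes most like each member were found among all genes tested. Likeness was Pearson's r of log2 CPM over mice, some of which share genotype, depth and line. Icam1 was most like Ankrd11 (r = 0.942), Swi5 (0.934) and Prkcd (0.929), and Vcam1 most like Tnfsf13b (0.907), Gab2 (0.90) and Rnf19b (0.892). Cxcl16 was most like Nfkbia (0.952), Gstcd (0.94) and Cd101 (0.936). Ccl4 was most like Abcb1b (0.868), Rasa1 (0.853) and Cct3 (0.835). By ranks, Spearman's rho of these pairs ran from 0.755 (Ccl4 and Rasa1) to 0.955 (Icam1 and Ankrd11), with 0.764 for Icam1 and Prkcd. Genes that differ in the active IKKβ mice resemble each other by this measure. The pairs are the highest of many, no level for chance was computed, and shared regulation was not tested.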

How the data were processed

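The authors counted 3′ single-nucleus reads (10x) with Cell Ranger 3.1.0 against mm10 pre-mRNA and, per the submitters' processing notes, used Seurat 3.0. The deposited values are raw UMI counts per gene and barcode, not normalised. Intronic reads were counted, and genes with an antisense neighbour cannot be checked for misassigned reads. Besides Cxcl16 and Cxcl10, this holds for Icam1 (Gm47079), Vcam1 (Gm43109) and Ccl2 (Gm17268).

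Barcodes were kept from 300 up to 8000 genes if mitochondrial UMIs did not exceed 5%, and 9474 predicted doublets were left out (0.8% per 1000 barcodes, from simulated doublets among neighbours). Nuclei were clustered (10000 UMIs, 2000 variable genes without the members, 30 components, 20 neighbours, leidenalg 0.10.2, resolution 1) and named from marker lists, with clusters under 50 nuclei unnamed. Raw counts were summed per mouse and type. Genes passing filterByExpr entered edgeR 4.0.16 (TMM, quasi-likelihood, 1 term per genotype, all 11 mice). A call needed an adjusted p (Benjamini-Hochberg) below 0.05 and a log2 difference above 0.1 in size. SE is the log2 fold change over the square root of F. DESeq2 1.42.0 was an alternative. Types were compared when every mouse had at least 10 nuclei, by log2(CPM + 1). The fits were tried on simulated counts with changes at random genes and no line, recombinase or age effect. That trial does not cover the confounding of these groups. Barcode sequences found in several libraries were kept in each.

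Members, lists and markers were chosen with earlier results of these data known. Named were all members, companion genes called in microglia-like sums, and the 3 genes most like each tested member.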

Additional observations from a re-analysis of the deposited data

Results flagged for a closer look

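Ccl3 in microglia-like sums of non-transgenic replicate 2 was at 9.34 CPM, from 5 UMIs in 5 nuclei, where the other 3 mice of the group were at 0 CPM. It was marked because the gap to the nearest mouse was the whole range of the group. Groups of 4 were examined for 11 genes and types, 1 was marked, and chance marks about 1 in 20 for continuous values. That rate does not apply to a sparse count such as this, which is marked whenever 1 mouse alone has a UMI. Without this mouse the exact permutation test of Ccl3 over the 4 genotypes gave p = 0.0149, and with it p = 0.147. The mouse was picked by its Ccl3 value, and without it the group is at 0 throughout, so a lower p follows from the choice. It is the lowest p with 1 mouse left out (0.0149 to 0.286, permutation), and nothing is read from it.

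Vcam1 was marked because its difference between active IKKβ and P301S mice was larger in microglia-like than in astrocyte-like sums, by 1.89 ± 0.42 on the log2 scale (edgeR adjusted p = 0.0154).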

How the results depend on the processing

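With 2 to 4 mice per group, few counts and line partly confounded with genotype, the calls against P301S mice were the least stable. Deviations from group means correlated at -0.0817 to 0.0851 between mice with the same replicate number and line. This cannot decide whether the mice were paired, because the deviations of 2 mice in a group mirror each other. With the replicate block 0 members were called against P301S mice and 0 against knockout P301S mice. Of 4 members called against P301S mice, 0 were called with breeding line as a covariate, 0 within the active IKKβ line (2 mice against 1), 2 with age as a covariate, 2 with doublets kept and 1 with DESeq2, and leaving out 1 mouse at a time gave 0 to 4. Against knockout P301S mice 0 were called with line or with age as a covariate, and 0 to 3 with 1 mouse left out. Against non-transgenic mice 1 to 3 were called with 1 mouse left out, the lowest without active IKKβ replicate 2 (Icam1 edgeR adjusted p = 0.0697, Cxcl16 0.0529). For P301S, for knockout and outside microglia, 0 were called with any mouse left out. With no filter on low counts Ccl3 fell by 2.62 ± 0.75 on the log2 scale against P301S mice (edgeR adjusted p = 0.0296), in a fit not repeated without P301S replicate 3. Over 4 genotypes the permutation p of Ccl2 ranged from 0.441 to 0.931 with 1 mouse left out and that of Ccl3 from 0.0149 to 0.286. Of 6 neighbouring levels that differed between types, 0 did after thinning. Companion genes called for P301S numbered 0, and 4 with no filter, 2 with the replicate block, 2 with line as a covariate and 0 to 2 with 1 mouse left out. In the active IKKβ contrast there were 8, and 13 with no filter, 4 with the block, 3 within the line, 5 with DESeq2 and 4 to 10 with 1 mouse left out. Against knockout P301S mice there were 9, and 1 with the block, 1 with line, 2 with age, 5 with doublets kept and 4 to 11 with 1 mouse left out, and against non-transgenic mice 6 to 11. For knockout there were 0 with any mouse left out. No direction was reversed for a called value, and the causes of these changes were not tested.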
